A study of Mus musculus with 27 samples.

Results

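How the difference that goes with Isl1 changed between 0 h and 48 h of fat cell differentiation was measured on 12 of the 27 arrays of the series, in 4 groups of 3. The arrays held total RNA of 3T3-L1 cells, mouse fibroblasts that can be induced with hormones to become fat cells. The high-Isl1 group at 48 h is titled WT_T48 and labelled as pMIG vector cells after 48 h in differentiation medium. The low-Isl1 group at 48 h is titled ISL1_T48 and labelled as Flag-ISL1 cells after the same time in the medium. ISL1_T0 are Flag-ISL1 cells and WT_T0 are pMIG vector cells, both taken just before induction. The medium held 10% fetal calf serum, 350 nM insulin, 400 nM biotin, 250 nM of the glucocorticoid dexamethasone and 0.5 mM isobutylmethylxanthine, an inhibitor of cAMP breakdown, and cells received it 2 days after they were confluent. The construct was present before induction as well as after it. The sources used here do not say whether the cells were clones or pools. The submitters describe the triplicates as biological, and the labels name no batch.

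The 48 h groups were chosen by their Isl1 level, which disagrees with their titles. Isl1 read 12.79, 12.76 and 12.72 in the high-Isl1 and 7.48, 8.01 and 7.47 in the low-Isl1 arrays at 48 h, and 12.64, 12.62 and 12.61 in ISL1 and 7.37, 7.47 and 7.17 in vector arrays at 0 h. The 48 h arrays titled WT_T48 were thus as high as the ISL1 cells at 0 h, and those titled ISL1_T48 were near the vector cells. Arrays counted as high above 12 and as low below 9. The lowest value inside the upper limit was 12.61, and the highest value under the lower limit was 8.65, in a vector array at 2 h. No array was moved between groups. The Isl1 level set which 48 h group was subtracted from the other, so every direction at 48 h rests on it. It also set which 0 h group each 48 h group was paired with in the responses to the medium. Isl1 chose the groups, is given with no test and is left out of every count. The sources used here do not say whether its probe set reads the Flag-ISL1 transcript.

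ISL1 is a LIM homeodomain transcription factor best known from motor neurons, heart progenitors and pancreatic islets, and the title of the series places it upstream of PPARG and BMP4 in early fat cell formation. Confluent 3T3-L1 cells that receive the hormones re-enter the cell cycle for a short time, called clonal expansion, before they leave it and store fat. CEBPB and CEBPD come early in that course, then PPARG and CEBPA, which switch on the genes of lipid uptake, synthesis and storage.

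For each of 19937 genes the 48 h difference (high-Isl1 minus low-Isl1 arrays) was set against the 0 h difference (ISL1 minus vector arrays). Their own difference, 48 h minus 0 h, is called the change. All values are on the log2 scale, where a difference of 1 is 2-fold. A change is given ± its standard error from one limma fit, and passed the test when its two-sided p, adjusted by Benjamini and Hochberg over all genes, was under 0.05. The changes named as past the test had adjusted p between 1.59e-17 and 0.0478. Replicate arrays of the 4 groups correlated at 0.9948 to 0.9986, and the array titled ISL1_T48 replicate 2 deviated most from its group, by a median of 0.106.

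The line's own markers were above 7.04, the median of unnamed probe sets, in all 4 groups, except Adipoq in ISL1 arrays at 0 h. Adipoq, an adipocyte marker, averaged 7.23 in the high-Isl1 and 10.84 in the low-Isl1 arrays at 48 h. At 0 h it averaged 6.56 in ISL1 and 10.76 in vector arrays. The 5 fibroblast and preadipocyte markers averaged 11.78 to 11.90 in the high-Isl1 and 11.80 to 11.98 in the low-Isl1 arrays at 48 h, and 12.87 to 12.93 in ISL1 and 13.19 to 13.32 in vector arrays at 0 h. The 5 measured adipocyte markers averaged 10.74 to 10.88 in the high-Isl1 and 12.30 to 12.42 in the low-Isl1 arrays at 48 h, and 9.24 to 9.35 in ISL1 and 11.39 to 11.48 in vector arrays at 0 h. Vector cells thus carried adipocyte transcripts before induction, and the groups of each time differed in them. In bulk RNA, fewer cells of a type and less RNA per cell cannot be told apart. The part of these marker levels in the results was not tested.

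The difference changed for 4888 genes, 24.5% of those tested. It was higher at 48 h for 2266 genes (11.4%) and lower for 2622 (13.2%), and the size was at least 2-fold for 301 and 493 of these. The median change over all genes was -0.02. At 48 h 5552 genes (27.8%) differed between high- and low-Isl1 arrays, 2759 higher and 2793 lower. The share higher was 49.7%, or 55.7% after each array was centred on its median, and 45.3% to 55.1% when 1 array of either 48 h group was left out. At 0 h 5118 genes (25.7%) differed between ISL1 and vector cells, 3046 higher and 2072 lower. Across the 19937 genes the 48 h and the 0 h differences correlated weakly, with Pearson 0.301 and Spearman 0.126. They share no array, but they share the normalization, and genes are not independent replicates.

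Most of the 4888 genes were past the test at one time and not at the other. A difference at 48 h with none past the test at 0 h was found for 1666 (34.1%), and the reverse for 1313 (26.9%). Another 1184 (24.2%) passed at both times with opposite signs. Of these, 806 were lower with Isl1 at 48 h and higher at 0 h, with median differences of -0.44 at 48 h and 0.45 at 0 h. The other 378 were higher at 48 h and lower at 0 h, with medians of 0.40 and -0.36. The sign was kept with a larger size at 48 h in 294 genes (6.0%) and with a smaller size in 251 (5.1%), and 180 passed at neither time alone.

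**Figure D1:**
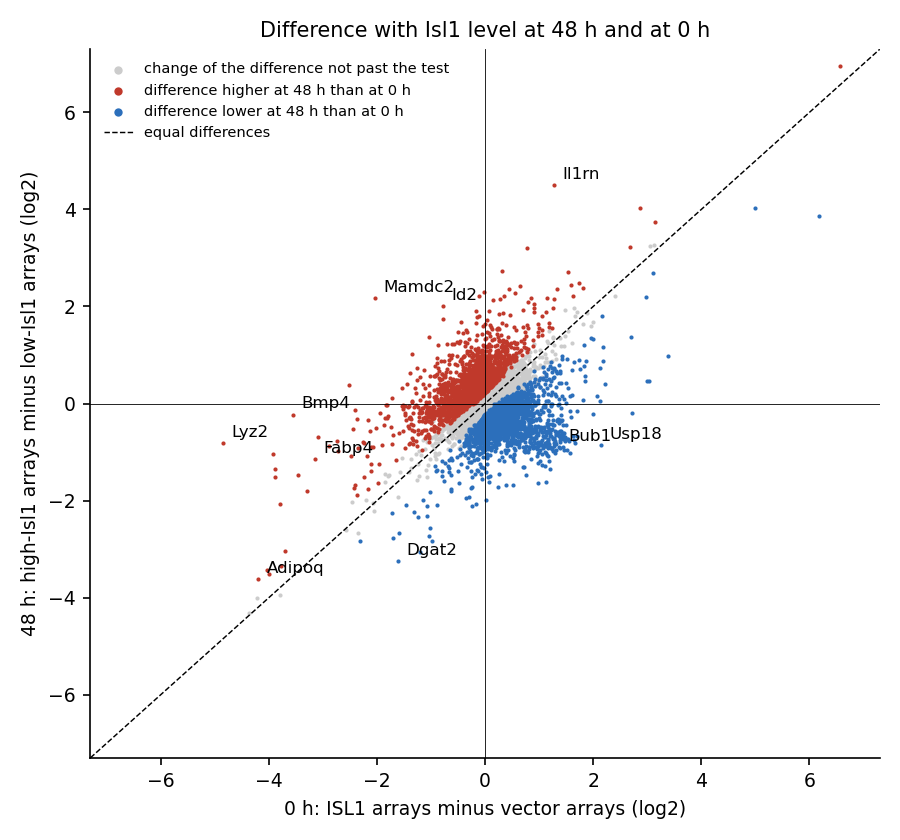
Each point is 1 gene, with its 0 h difference (ISL1 minus vector arrays, log2) on the x axis and its 48 h difference (high-Isl1 minus low-Isl1 arrays, log2) on the y axis. The dashed line marks equal differences. Past the test, 2266 coloured genes lie above it and 2622 below it. Lyz2 (-0.81 at 48 h and -4.84 at 0 h) and Mamdc2 (2.17 at 48 h and -2.04 at 0 h) are among those above it.

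The change is also the response to the medium in high-Isl1 cells minus that in low-Isl1 cells. By the labels, each response sets a 48 h group against 0 h cells of the other construct. The 48 h arrays, the 0 h arrays and those of the hours between carry sample numbers in separate runs. Time can therefore not be told apart from any difference between these runs. High-Isl1 arrays at 48 h differed from ISL1 cells at 0 h in 6619 genes (33.2%), and low-Isl1 arrays at 48 h differed from vector cells at 0 h in 8247 genes (41.4%). Of the called genes 42.6% were higher in the high-Isl1 response, or 57.4% once each array was centred on its median. In the low-Isl1 response 51.5% were higher, or 59.4% after centring. Both responses, which share no array, correlated at 0.650 (Pearson) and 0.550 (Spearman) across genes. Among the 2622 genes with a lower difference at 48 h, 928 rose past the test in the low-Isl1 response alone, 541 fell in the high-Isl1 response alone, 418 fell in the high-Isl1 and rose in the low-Isl1 response, 490 rose in both and 205 fell in both. Among the 2266 with a higher difference, 746 fell in both responses, 715 fell in the low-Isl1 response alone, 304 rose in the high-Isl1 response alone, 283 rose in both, and 190 rose in the high-Isl1 and fell in the low-Isl1 response.

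Most genes of cell division were lower in high-Isl1 than in low-Isl1 arrays at 48 h, and all those measured were higher in ISL1 than in vector cells before induction. The change was negative and past the test for 35 of 35 mitosis genes and for 38 of 38 DNA replication genes, against 13.2% of all genes.

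Mitosis genes had a median change of -1.89, from a median of -0.65 at 48 h and 1.25 at 0 h. At 48 h 33 of 35 were past the test as lower, against 2793 of all 19937 genes. At 0 h 35 of 35 were past it as higher, against 3046 of all genes. Bub1, a kinase of the spindle checkpoint, read 10.06, 9.75 and 10.18 in the high-Isl1 and 10.95, 10.75 and 11.02 in the low-Isl1 arrays at 48 h, and 11.82, 11.76 and 11.79 in ISL1 and 10.38, 10.57 and 10.25 in vector arrays at 0 h. The ISL1 cells at 0 h were the highest group and the high-Isl1 arrays at 48 h the lowest, and groups did not overlap at either time. Its change was -2.30 ± 0.197 (limma, adjusted p = 1.06e-09). Kif11, a motor that pushes the spindle poles apart, read 9.75, 9.73 and 9.84 in the high-Isl1 and 10.97, 10.65 and 10.95 in the low-Isl1 arrays at 48 h, and 11.88, 11.98 and 11.99 in ISL1 and 10.80, 10.88 and 10.65 in vector arrays at 0 h. It ran in the same order and changed by -2.25 ± 0.145. Hmmr, which helps to build the spindle, changed by -2.27 ± 0.193 and Kif2c, which takes microtubules apart, by -2.25 ± 0.160. The least of the list was Spc24 of the kinetochore, at -1.12, so every measured member lay beyond -1.

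Of the 15 most negative changes among all genes with established names, 8 belonged to genes of the dividing cell. Ncapg2 (-2.61 ± 0.220) and Ncapg (-2.59 ± 0.236) encode condensin subunits, which fold chromosomes for division. Pbk (-2.47 ± 0.178) is a mitotic kinase, Kif20b (-2.47 ± 0.199) a mitotic motor, Trip13 (-2.43 ± 0.168) a checkpoint ATPase and Ska3 (-2.40 ± 0.216) a kinetochore protein. E2f8 (-2.39 ± 0.167) is a repressor of cell cycle genes, and Shcbp1 (-2.37 ± 0.223) is expressed in dividing cells. All 8 were lower with Isl1 at 48 h and higher at 0 h, past the test at both times.

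DNA replication genes had a median change of -1.60, from -0.80 at 48 h and 0.75 at 0 h. At 48 h 34 of 38 were past the test as lower, against 2793 of all 19937 genes. At 0 h 38 of 38 were past it as higher, against 3046 of all genes. Rrm2, a subunit of the enzyme that makes deoxynucleotides, read 10.31, 10.25 and 10.47 in the high-Isl1 and 12.05, 11.94 and 12.09 in the low-Isl1 arrays at 48 h, and 11.32, 11.37 and 11.33 in ISL1 and 10.86, 10.86 and 10.73 in vector arrays at 0 h. Here the low-Isl1 arrays at 48 h were the highest of the 4 groups and the high-Isl1 arrays the lowest, without overlap. Its change was -2.20 ± 0.106 (adjusted p = 4.95e-14). Ccne2, a cyclin of S phase entry, changed by -2.21 ± 0.183, Prim1 of the primase by -2.17 ± 0.194 and Gins1 of the replicative helicase by -2.09 ± 0.204. The helicase subunit genes Mcm3 and Mcm7, named for their promoters below, changed by -2.04 ± 0.145 and -1.97 ± 0.147.

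As responses to the medium, these genes went apart. In the high-Isl1 response 35 of 35 mitosis genes (median -1.67) and 38 of 38 replication genes (median -0.95) fell. The same held for 3796 of all 19937 genes. In the low-Isl1 response 18 mitosis genes rose and 5 fell (median 0.25), and 31 of 38 replication genes rose (median 0.52). Among all genes 4250 rose and 3997 fell in that response. Vector cells had Bub1 at 10.40 at 0 h, 9.46 at 4 h and 9.89 at 8 h. Their Rrm2 was at 10.82 at 0 h, 11.96 at 4 h and 12.11 at 8 h, so by then it was close to its level in low-Isl1 arrays at 48 h.

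**Figure D2:**
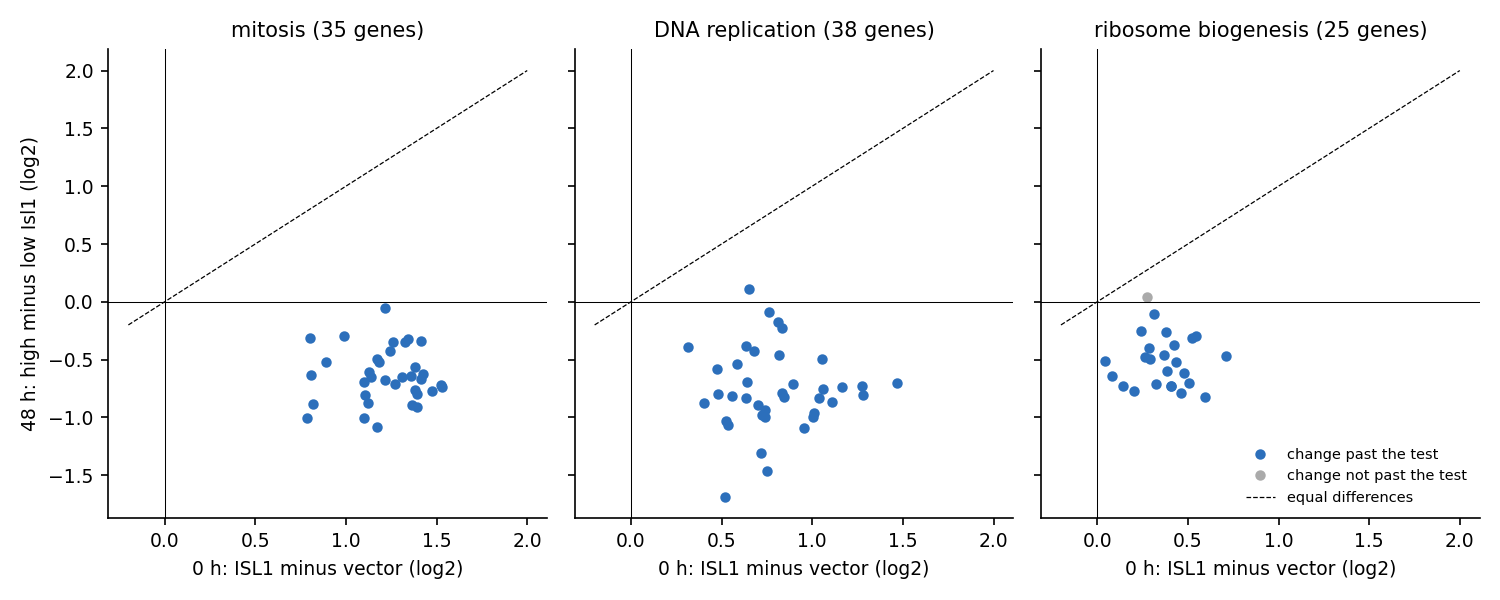
Each point is 1 measured gene of the named list, with its 0 h difference (ISL1 minus vector, log2) on the x axis and its 48 h difference (high-Isl1 minus low-Isl1, log2) on the y axis. Most points lie lower at 48 h and higher at 0 h: both were past the test in that direction for 33 of 35 mitosis, 34 of 38 replication and 19 of 25 ribosome biogenesis genes. Counted the same way, 806 of all 19937 genes were.

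Mitosis and replication genes are known for different promoter elements. Many mitosis genes carry a cell cycle genes homology region (CHR) beside CCAAT boxes, and many replication genes carry E2F sites. Windows of 300 bases, from 250 before to 50 after the gene start, came from RefSeq (GRCm38.p6) for 28 of 35 mitosis, 31 of 38 replication and 20 of 25 ribosome biogenesis genes. Shown are, for each of the first 2 lists, the 2 genes of lowest change whose window holds the element its list is known for. They are Hmmr (chr11:40733388-40733687, minus strand), Kif11 (chr19:37376132-37376431, plus strand), Mcm3 (chr1:20820263-20820562, minus strand) and Mcm7 (chr5:138171834-138172133, minus strand, 1 of 2 windows of the gene). Each is written 5′ to 3′ along the gene. Capitals mark the CHR core, which is TTTGAA or, on the other strand, TTCAAA. They also mark the CCAAT box, which reads ATTGG on the other strand, and the E2F type motifs TTTCCCGC (GCGGGAAA) and TTTGGCGC (GCGCCAAA).
Hmmr: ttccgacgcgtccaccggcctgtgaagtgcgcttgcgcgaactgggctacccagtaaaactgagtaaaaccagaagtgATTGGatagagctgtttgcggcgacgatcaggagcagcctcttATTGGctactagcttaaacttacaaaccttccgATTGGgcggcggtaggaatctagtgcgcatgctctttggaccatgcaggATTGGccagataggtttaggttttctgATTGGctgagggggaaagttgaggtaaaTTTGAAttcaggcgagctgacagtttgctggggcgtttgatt
Kif11: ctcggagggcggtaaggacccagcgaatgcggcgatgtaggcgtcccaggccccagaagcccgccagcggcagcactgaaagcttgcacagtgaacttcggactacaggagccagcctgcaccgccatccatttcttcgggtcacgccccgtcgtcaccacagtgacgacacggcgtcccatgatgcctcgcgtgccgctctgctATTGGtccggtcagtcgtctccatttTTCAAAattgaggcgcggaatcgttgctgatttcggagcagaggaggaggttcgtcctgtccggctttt
Mcm3: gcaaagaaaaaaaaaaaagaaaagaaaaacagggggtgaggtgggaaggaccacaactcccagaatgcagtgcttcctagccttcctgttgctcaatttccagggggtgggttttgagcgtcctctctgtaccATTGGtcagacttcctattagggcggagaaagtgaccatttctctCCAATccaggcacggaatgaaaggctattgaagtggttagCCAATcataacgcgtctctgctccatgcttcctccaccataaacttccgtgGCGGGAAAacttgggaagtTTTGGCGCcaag
Mcm7: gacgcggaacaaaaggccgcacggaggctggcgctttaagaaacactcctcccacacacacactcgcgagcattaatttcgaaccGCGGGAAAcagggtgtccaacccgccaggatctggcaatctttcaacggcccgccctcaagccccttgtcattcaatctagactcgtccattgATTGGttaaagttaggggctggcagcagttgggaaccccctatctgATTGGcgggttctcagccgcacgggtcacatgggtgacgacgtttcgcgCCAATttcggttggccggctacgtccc

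In Hmmr the CHR core began 8 bases after the start, downstream of 5 CCAAT boxes, and in Kif11 it lay 19 bases before the start, next to 1 CCAAT box at 45 bases before it. The CHR core was in 24 of 30 windows of mitosis genes (80.0%), in 4 of 35 of replication genes (11.4%) and in 14.8% of the 19177 windows of all measured genes. The CCAAT box was in 23 mitosis windows (76.7%) and 20 replication windows (57.1%), against 37.4% of all. An E2F type motif was in 0 of 30 mitosis windows and 11 of 35 replication windows (31.4%), against 2.2% of all. Of the 22 windows of ribosome biogenesis genes 3 (13.6%) held the CHR core, 7 (31.8%) the CCAAT box and 3 (13.6%) an E2F type motif. Both strands were searched, and matches of different motifs may share end letters, though none did in the windows shown. These shares describe letters. No binding was measured, and a window without a match says only that these letters are not in it.

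Of 25 ribosome biogenesis genes 19 were past the test as lower at 48 h and as higher at 0 h. Counted the same way, 806 of all 19937 genes were. The change was negative and past the test for 24 of 25 (median -0.84), against 13.2% of all genes, with a median of -0.51 at 48 h and 0.38 at 0 h. Npm1, a nucleolar chaperone, was the exception at -0.23. In the high-Isl1 response 18 of 25 rose (median 0.36) and 0 fell, and 25 of 25 rose in the low-Isl1 response (median 1.29). Among all 19937 genes 2823 rose and 3796 fell in the high-Isl1 response, and 4250 rose in the low-Isl1 response. Polr1b, a core subunit of RNA polymerase I, read 10.90, 10.59 and 10.89 in the high-Isl1 and 11.58, 11.64 and 11.52 in the low-Isl1 arrays at 48 h, and 10.44, 10.25 and 10.23 in ISL1 and 9.94, 9.88 and 9.73 in vector arrays at 0 h. Groups did not overlap at either time, and the 48 h levels stood above the 0 h levels in both kinds of cell. Its change was -1.25 ± 0.134. Wdr12 (-1.42 ± 0.122) and Nop58 (-1.21 ± 0.120), of ribosome assembly and of RNA modification, and Dkc1 (-1.18 ± 0.129), a pseudouridine synthase, were the other largest.

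Of 33 genes of oxidative phosphorylation and mitochondrial metabolism, 24 had a lower difference at 48 h, 2 a higher one and 7 did not pass (median -0.39), beside 13.2% lower among all genes. Idh3a, a subunit of a citric acid cycle enzyme, read 11.73, 11.65 and 11.84 in the high-Isl1 and 12.80, 12.66 and 12.75 in the low-Isl1 arrays at 48 h, and 11.49, 11.49 and 11.54 in ISL1 and 11.22, 11.07 and 11.10 in vector arrays at 0 h. It was the highest in the low-Isl1 arrays at 48 h and changed by -1.37 ± 0.096. Atp5g1 of the ATP synthase changed by -0.80 ± 0.097. The 2 exceptions were Cpt1a and Pdk4. Cpt1a, which admits fatty acids to mitochondria, changed by 1.20 ± 0.080, and Pdk4, which blocks pyruvate oxidation, by 0.91 ± 0.091. Of 29 genes of the amino acid and unfolded protein responses, 15 were lower, 0 higher and 14 not past the test (median -0.24). The 51.7% past it stand beside 24.5% of all genes. Slc7a5, a carrier of large neutral amino acids, read 11.11, 11.07 and 11.21 in the high-Isl1 and 12.80, 12.85 and 12.79 in the low-Isl1 arrays at 48 h, and 12.67, 12.60 and 12.57 in ISL1 and 12.31, 12.29 and 12.08 in vector arrays at 0 h. The high-Isl1 arrays at 48 h were the lowest group and the change was -2.07 ± 0.096. Slc7a11, the cystine carrier, changed by -1.64 ± 0.192, Shmt2 of mitochondrial folate metabolism by -1.55 ± 0.132 and Chac1, which breaks down glutathione, by -1.28 ± 0.160. Ppa1, a pyrophosphatase outside these lists, was among the 15 most negative of all (-2.55 ± 0.108).

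Bmp4, a secreted factor that commits cells to the fat lineage and that the series title names, lost its difference. It read 7.22, 7.69 and 7.52 in the high-Isl1 and 7.55, 7.86 and 7.71 in the low-Isl1 arrays at 48 h, and 8.26, 8.15 and 8.25 in ISL1 and 11.83, 11.77 and 11.73 in vector arrays at 0 h. At 0 h the vector arrays were far above the ISL1 arrays, and at 48 h the groups overlapped near the low end. The change was 3.32 ± 0.147 (adjusted p = 9.97e-15), from -0.23 at 48 h (adjusted p = 0.11) and -3.55 at 0 h. In vector cells Bmp4 stood at 11.77 at 0 h, 11.81 at 0.5 h, 11.64 at 1 h, 9.73 at 2 h, 8.23 at 4 h and 7.71 at 8 h. Its response to the medium was -0.75 in high-Isl1 and -4.07 in low-Isl1 cells, so the gap closed with a fall in both.

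Among 33 BMP ligands, receptors and antagonists the change was higher for 18 and lower for 0, against 11.4% higher among all genes, with a median of 0.32. Chrdl1, a chordin-like antagonist, read 8.19, 8.24 and 8.42 in the high-Isl1 and 10.26, 10.27 and 10.51 in the low-Isl1 arrays at 48 h, and 7.74, 7.34 and 7.55 in ISL1 and 11.34, 11.33 and 11.32 in vector arrays at 0 h. It stayed lower with Isl1 at both times and its gap shrank by 1.73 ± 0.119. Gdf10, a divergent ligand, changed by 0.90 ± 0.127 and Bmp1, a protease that cuts chordin and procollagens, by 0.83 ± 0.079. Of 18 BMP target genes 6 were higher and 1 lower (38.9% past the test, beside 24.5% of all genes, median 0.15). Id2, a helix-loop-helix protein that blocks DNA binding by its partners, read 12.44, 12.42 and 12.43 in the high-Isl1 and 10.52, 10.20 and 10.53 in the low-Isl1 arrays at 48 h, and 11.53, 11.60 and 11.71 in ISL1 and 12.35, 12.45 and 12.36 in vector arrays at 0 h. It was higher with Isl1 at 48 h and lower at 0 h, without overlap, and its change of 2.79 ± 0.100 was among the 15 most positive of all genes. Id3 changed by 1.38 ± 0.108, Atoh8 by 1.08 ± 0.109 and the antagonist Grem1, higher with Isl1 at both times, by 0.53 ± 0.098. The decoy receptor Bambi went the other way (-0.49 ± 0.104), with a wider gap at 48 h.

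**Figure D3:**
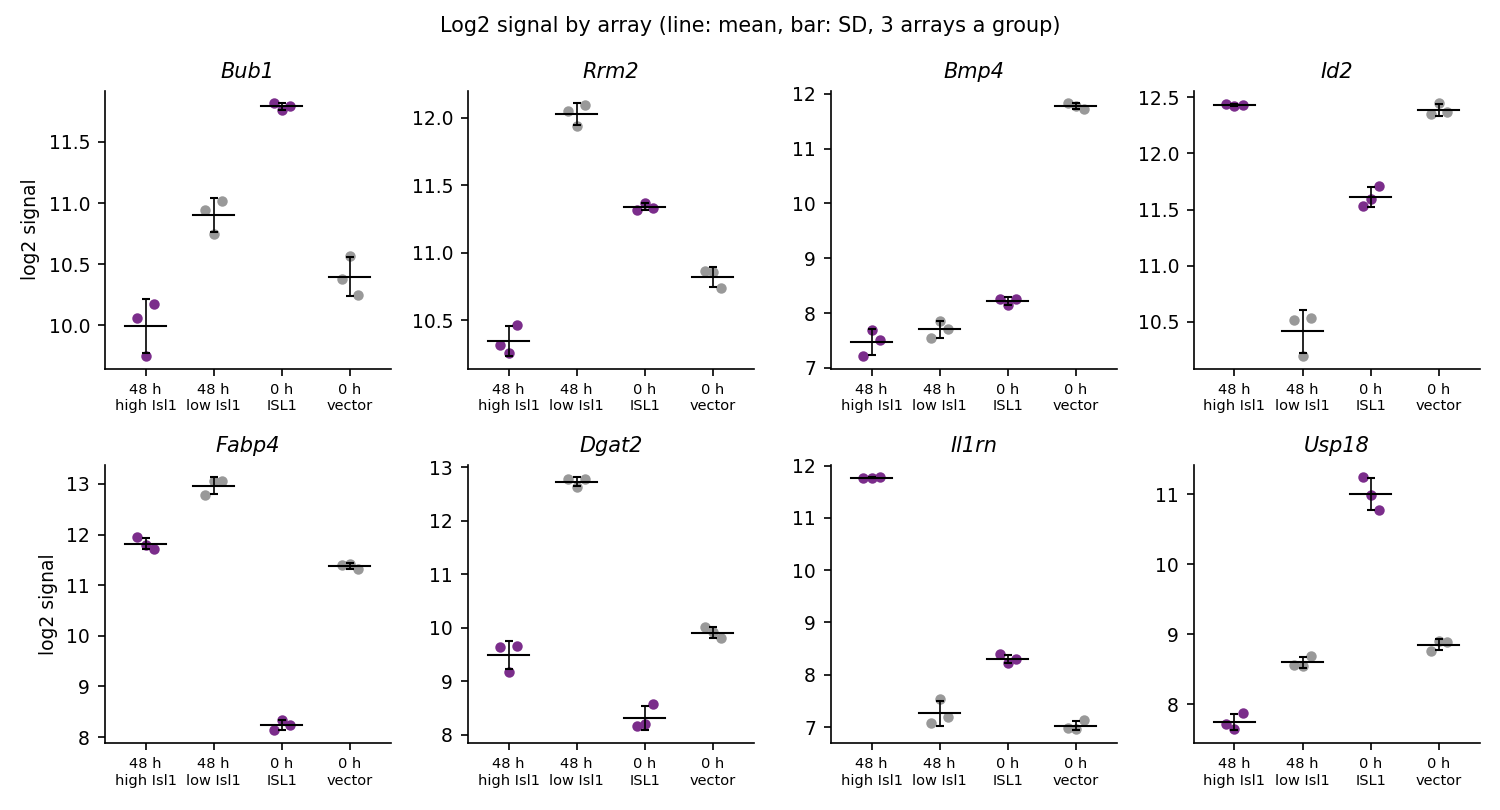
Points are single arrays, with the group on the x axis (48 h high-Isl1, 48 h low-Isl1, 0 h ISL1, 0 h vector) and the log2 signal on the y axis. Lines are group means and bars are SD over 3 arrays. Bub1, Rrm2 and Usp18 were lower with Isl1 at 48 h and higher at 0 h, Id2 the opposite, Bmp4 differed past the test at 0 h, Fabp4 kept a smaller gap, and Dgat2 and Il1rn a wider one.

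About as many adipogenic transcription factors were lower with Isl1 at 48 h as at 0 h, but not by equal amounts. At 48 h 12 of 22 were lower and 3 higher (median -0.30), against 2793 and 2759 of all 19937 genes. At 0 h 11 were lower and 1 higher (median -0.25), against 2072 and 3046 of all genes. The change was higher for 7 and lower for 5 (54.5% past the test, beside 24.5% of all genes, median 0.05). Pparg, the master regulator of fat cells, read 12.66, 12.53 and 12.64 in the high-Isl1 and 13.10, 13.07 and 13.02 in the low-Isl1 arrays at 48 h, and 11.43, 11.37 and 11.39 in ISL1 and 11.86, 11.72 and 11.75 in vector arrays at 0 h. High-Isl1 arrays were below low-Isl1 arrays at 48 h and ISL1 below vector arrays at 0 h by similar amounts, and its change of -0.07 ± 0.085 did not pass (adjusted p = 0.683). Cebpa, its partner, read 9.31, 9.10 and 9.30 in the high-Isl1 and 11.32, 10.98 and 11.35 in the low-Isl1 arrays at 48 h, and 8.18, 8.07 and 7.68 in ISL1 and 9.20, 9.10 and 9.06 in vector arrays at 0 h. Its gap was wider at 48 h, by -0.84 ± 0.143 (adjusted p = 5.06e-05). Cebpb did not pass at either time (0.12 at 48 h and 0.00 at 0 h) nor for the change (0.12 ± 0.121, adjusted p = 0.606). Cebpd was higher with Isl1 at 48 h and lower at 0 h, a change of 1.11 ± 0.122. Ebf2, of brown fat precursors, changed by 0.84 ± 0.133, Egr2, an early adipogenic factor, by -1.04 ± 0.159 and the coactivator gene Ppargc1b by -1.17 ± 0.166.

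Most lipid and adipocyte genes had no change past the test, and the rest were divided between higher and lower changes. The 6 lists of these genes hold 96 measured genes. At 48 h 50 were lower with Isl1 and 13 higher, against 2793 and 2759 of all 19937 genes. At 0 h 46 were lower and 10 higher, against 2072 and 3046 of all genes. The change was higher for 21, lower for 23 and not past the test for 52 (median -0.06). The share past the test was 45.8%, beside 24.5% of all genes. Of the 36 genes lower at both times, the gap was smaller at 48 h for 9, wider for 11 and did not change past the test for 16. Among all 19937 genes the gap of genes lower at both times was smaller for 167 and wider for 92.

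The 9 genes with a narrower gap came from several of the lists. Fabp4, the fatty acid carrier of fat cells, read 11.94, 11.79 and 11.72 in the high-Isl1 and 12.78, 13.06 and 13.06 in the low-Isl1 arrays at 48 h, and 8.14, 8.33 and 8.24 in ISL1 and 11.40, 11.42 and 11.32 in vector arrays at 0 h. The high-Isl1 arrays at 48 h stood above even the vector arrays at 0 h, and the change was 2.00 ± 0.120 (adjusted p = 2.91e-12). Retn, the hormone resistin, read 11.94, 11.94 and 12.09 in the high-Isl1 and 12.68, 12.65 and 12.73 in the low-Isl1 arrays at 48 h, and 8.01, 7.94 and 8.30 in ISL1 and 11.38, 11.10 and 11.03 in vector arrays at 0 h and changed by 2.39 ± 0.146. Cd36, a fatty acid translocase, changed by 1.98 ± 0.224, Aqp7, the glycerol channel, by 1.46 ± 0.156, and Irs1, the insulin receptor substrate, by 1.06 ± 0.120 (a second, dimmer probe set of Irs1 gave 0.35). Adipoq, the hormone adiponectin (0.59), Lpl, the lipoprotein lipase (0.55), Gpd1 (0.42) and the glucose carrier gene Slc2a1 (0.30) also narrowed. Adipoq and Gpd1 remained far apart, at -3.61 and -3.35 at 48 h. The call on Gpd1 was lost when any 1 of 4 of the 0 h arrays was left out.

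Of the 11 genes with a wider gap, Dgat2, Gpat3, Agpat2, Lpin1 and Gpam encode enzymes of triglyceride assembly. Dgat2, which adds the last fatty acid, read 9.64, 9.18 and 9.65 in the high-Isl1 and 12.78, 12.64 and 12.78 in the low-Isl1 arrays at 48 h, and 8.16, 8.20 and 8.57 in ISL1 and 10.01, 9.92 and 9.80 in vector arrays at 0 h. Low-Isl1 arrays at 48 h were the highest group, without overlap, and the change was -1.64 ± 0.166 (adjusted p = 1.92e-08). Gpat3 (-1.85 ± 0.169), Agpat2 (-1.62 ± 0.108) and Lpin1 (-1.15 ± 0.129) catalyse the steps before it, and Gpam (-0.61) the first step in mitochondria. Mrap (-0.83), Slc2a4, the insulin-driven glucose carrier (-0.55), Cidec, a droplet fusion protein (-0.52), Thrsp (-0.50), Plin4, a droplet coat protein (-0.48) and Slc27a1, a fatty acid transporter (-0.38), widened too. By list, 6 of 16 triglyceride assembly enzymes had a lower and 2 a higher difference and 8 did not pass (median -0.06). The 50.0% past the test stand beside 24.5% of all genes. The 16 genes with a gap at both times and no change past the test included the droplet coat gene Plin1 (-2.22 at 48 h and -2.05 at 0 h), the phosphodiesterase gene Pde3b (-2.67 at 48 h and -2.36 at 0 h) and the fatty acid synthase gene Fasn (-0.60 at 48 h and -0.40 at 0 h).

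**Figure D4:**
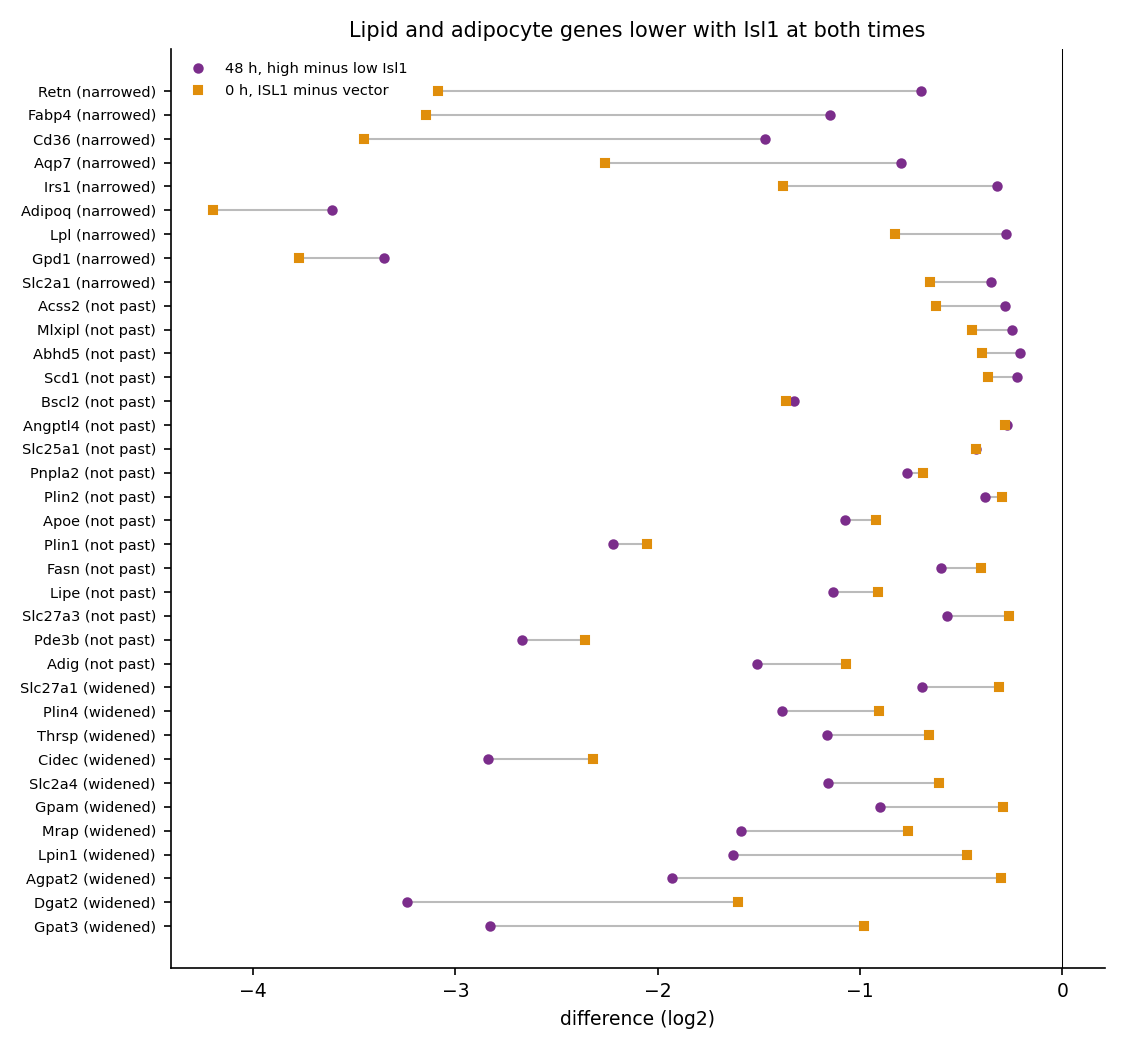
Each of the 36 lipid and adipocyte genes lower with Isl1 at both times has its 48 h difference (high-Isl1 minus low-Isl1 arrays) and its 0 h difference (ISL1 minus vector arrays) on the log2 axis. The gap narrowed past the test for 9, did not change past it for 16 and widened for 11, with Retn (2.39) and Gpat3 (-1.85) at the ends.

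Other lipid genes were lower with Isl1 at 48 h without a difference past the test at 0 h. This held for 10 genes with a lower change, beside 772 of all 19937 genes. Elovl3, an elongase of very long fatty acids, read 6.42, 6.42 and 6.27 in the high-Isl1 and 8.53, 8.08 and 8.73 in the low-Isl1 arrays at 48 h, and 6.26, 6.08 and 6.14 in ISL1 and 6.22, 6.50 and 6.25 in vector arrays at 0 h. It stood apart in the low-Isl1 arrays at 48 h and was near its 0 h level in the other groups, a change of -1.91 ± 0.172. Adipor2, an adiponectin receptor (-1.26 ± 0.110), G0s2, which inhibits the main triglyceride lipase (-1.23 ± 0.119), Ffar2, a receptor of short fatty acids (-1.01 ± 0.109), Me1, malic enzyme (-0.69 ± 0.104), and Elovl1 (-0.60 ± 0.095) did likewise. Fabp5, a fatty acid carrier of many tissues, reversed: it was -1.30 at 48 h and 0.70 at 0 h, a change of -2.00 ± 0.106 (-2.06 on its other probe set).

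By list, the other counts were small and mixed. Past the test were 27.8% of lipid droplet and lipolysis genes, close to the 24.5% of all genes. It was 44.4% of fatty acid synthesis, 58.3% of uptake and binding, 53.3% of secreted product and 47.1% of signalling and glucose uptake genes. Lipid droplet and lipolysis genes had 2 higher and 3 lower of 18 (median -0.11), with Plin3 at 0.49 ± 0.101. Fatty acid synthesis had 4 and 4 of 18 (median 0.10), with the desaturase gene Fads2 at 0.75 ± 0.075. Fatty acid uptake and binding had 5 and 2 of 12 (median 0.02), with the endocytic receptor gene Lrp1 at 0.70 ± 0.152. Secreted adipocyte products had 5 and 3 of 15 (median -0.05): the peptide gene Apln changed by 1.91 ± 0.106, angiotensinogen (Agt) by 1.07 ± 0.094 and the chemokine gene Ccl2 by -0.84 ± 0.141. Signalling and glucose uptake genes had 3 and 5 of 17 (median -0.07), with the amine oxidase gene Aoc3 at 0.83 ± 0.133.

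Among 25 repressors and preadipocyte genes the change was higher for 15, lower for 0 and not past the test for 10 (median 0.38), beside 11.4% higher among all genes. Their median difference was 0.17 at 48 h and -0.30 at 0 h. Besides Id2 these were led by Pi16, of fibroblast progenitors (1.35 ± 0.107), Twist1, a mesenchymal factor (1.23 ± 0.118), and Gata2, which restrains Pparg (1.01 ± 0.106). Twist1 read 10.15, 9.95 and 10.29 in the high-Isl1 and 9.88, 9.88 and 9.79 in the low-Isl1 arrays at 48 h, and 10.38, 10.45 and 10.36 in ISL1 and 11.36, 11.30 and 11.38 in vector arrays at 0 h. It was highest in the vector arrays at 0 h, and at 48 h the high-Isl1 arrays were above the low-Isl1 arrays without overlap.

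Of 37 matrix genes, 12 were higher and 12 lower with Isl1 at 48 h (median -0.07), against 2759 and 2793 of all 19937 genes. At 0 h 28 were lower and 2 higher (median -0.57), against 2072 and 3046 of all genes. The change was higher for 25 and lower for 2 (73.0% past the test, beside 24.5% of all genes, median 0.46). Lum, the proteoglycan lumican, read 7.79, 7.90 and 8.13 in the high-Isl1 and 9.42, 8.93 and 9.54 in the low-Isl1 arrays at 48 h, and 7.21, 7.13 and 7.17 in ISL1 and 11.07, 11.10 and 11.02 in vector arrays at 0 h. Its gap was smaller at 48 h, by 2.53 ± 0.180. Prg4, the joint lubricant lubricin, read 13.47, 13.47 and 13.38 in the high-Isl1 and 11.20, 11.22 and 11.21 in the low-Isl1 arrays at 48 h, and 6.62, 6.55 and 6.48 in ISL1 and 6.84, 6.75 and 6.42 in vector arrays at 0 h. It was near the low end in all 0 h arrays and highest in high-Isl1 arrays at 48 h, a change of 2.35 ± 0.160. Vector cells had Prg4 at 6.67 at 0 h, 7.10 at 1 h, 9.72 at 2 h and 11.59 at 8 h. Mmp3, stromelysin, changed by 1.82 ± 0.190 and the thrombospondin gene Thbs2 by 1.80 ± 0.090. Tnc, tenascin, went the other way (-1.03 ± 0.146).

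Collagen genes were lower with Isl1 at 0 h in 15 of 21 and higher in 0, against 2072 and 3046 of all 19937 genes. The change was higher for 11 and lower for 1 (57.1% past the test, beside 24.5% of all genes, median 0.27). Col12a1 (1.41 ± 0.121) and Col3a1 (0.81 ± 0.088) were the largest, then Col11a1 (0.69 ± 0.091) and Col8a1 (0.67 ± 0.133). Col15a1 alone was lower (-0.40 ± 0.104). Of 19 TGF-beta ligands, receptors and targets 14 were higher and 0 lower (73.7% past the test, beside 24.5% of all genes, median 0.64). Tgfb3 read 10.49, 10.32 and 10.47 in the high-Isl1 and 10.06, 9.68 and 9.85 in the low-Isl1 arrays at 48 h, and 11.09, 11.03 and 11.06 in ISL1 and 12.06, 12.02 and 11.91 in vector arrays at 0 h. It was higher with Isl1 at 48 h and lower at 0 h, as was Tgfb2 (1.02 ± 0.098), and its change was 1.50 ± 0.106. The secreted target Tgfbi changed by 1.38 ± 0.107 with 1.45 at 48 h and 0.07 at 0 h, and the latent TGF-beta binding protein gene Ltbp2 by 0.96 ± 0.121. Of 23 contractile genes and serum response factor targets 13 were higher and 1 lower (60.9% past, beside 24.5% of all genes, median 0.42). Acta2, smooth muscle actin, read 11.42, 11.50 and 11.31 in the high-Isl1 and 10.26, 10.06 and 10.37 in the low-Isl1 arrays at 48 h, and 13.57, 13.56 and 13.58 in ISL1 and 13.55, 13.67 and 13.55 in vector arrays at 0 h. It did not differ past the test at 0 h, and at 48 h it was higher in the high-Isl1 arrays by 1.18. Cnn2, a calponin, changed by 1.18 ± 0.100, Actg2, another smooth muscle actin, by 0.84 ± 0.126, and Ankrd1, a stretch-responsive gene, by -1.23 ± 0.142.

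Of 27 interferon response genes, 6 were higher and 1 lower with Isl1 at 48 h (median 0.08), against 2759 and 2793 of all 19937 genes. Before induction 22 were higher and 0 lower (median 0.73), against 3046 and 2072 of all genes. The change was lower for 12 and higher for 2 (51.9% past the test, beside 24.5% of all genes, median -0.42). Usp18, a brake on interferon signalling, read 7.72, 7.64 and 7.87 in the high-Isl1 and 8.55, 8.55 and 8.69 in the low-Isl1 arrays at 48 h, and 11.24, 10.98 and 10.78 in ISL1 and 8.77, 8.90 and 8.89 in vector arrays at 0 h. The ISL1 arrays at 0 h were the highest and the high-Isl1 arrays at 48 h the lowest, and its change of -3.00 ± 0.321 was the most negative of all named genes. Ifit1, an RNA sensor, changed by -1.73 ± 0.368, Irf7, which drives interferon genes, by -1.37 ± 0.212 and Oasl2 by -1.37 ± 0.310. Trim30a, an inflammatory regulator, stayed higher at both times (2.38 at 48 h and 1.81 at 0 h) and changed by 0.56 ± 0.183.

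Chemokine and inflammatory genes divided. The change was higher for 9 and lower for 6 of 28 (53.6% past the test, beside 24.5% of all genes, median -0.01). Saa3, an acute phase protein, read 11.17, 10.94 and 10.79 in the high-Isl1 and 8.48, 8.71 and 8.83 in the low-Isl1 arrays at 48 h, and 6.47, 6.20 and 6.28 in ISL1 and 6.38, 6.28 and 6.35 in vector arrays at 0 h. It was low in all 0 h arrays and differed by 2.29 between high-Isl1 and low-Isl1 arrays at 48 h, a change of 2.31 ± 0.176. The alarmin gene Il33 changed by 2.12 ± 0.177, the neutrophil attractant gene Cxcl5 by 1.94 ± 0.153 and Lbp, which binds bacterial lipopolysaccharide, by 1.87 ± 0.116. Ptgs2, the inducible cyclooxygenase, was lower (-1.42 ± 0.147). Il1rn, the interleukin-1 receptor antagonist, read 11.76, 11.76 and 11.77 in the high-Isl1 and 7.08, 7.53 and 7.18 in the low-Isl1 arrays at 48 h, and 8.39, 8.23 and 8.30 in ISL1 and 6.98, 6.97 and 7.13 in vector arrays at 0 h. It was higher with Isl1 at both times, its 48 h difference of 4.50 was the widest of the named genes apart from Isl1, and vector cells stayed at 7.03 at 0 h and 7.11 at 8 h. Its change was 3.22 ± 0.141.

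Of 20 cholesterol synthesis genes 13 were higher, 1 lower and 6 not past the test (median 0.48), beside 11.4% higher among all genes. Hsd17b7 read 11.61, 11.51 and 11.63 in the high-Isl1 and 10.77, 10.65 and 10.69 in the low-Isl1 arrays at 48 h, and 9.40, 9.38 and 9.41 in ISL1 and 10.26, 10.14 and 10.04 in vector arrays at 0 h, higher with Isl1 at 48 h and lower at 0 h without overlap, and changed by 1.64 ± 0.093. Fdft1, squalene synthase (0.93 ± 0.120), Tm7sf2, a sterol reductase (0.87 ± 0.108), and Srebf2, their regulator (0.66 ± 0.096), followed, and Cyp51 was the exception (-0.56 ± 0.118). Of 17 clock genes 10 were higher and 1 lower (64.7% past the test, beside 24.5% of all genes, median 0.42). The largest were the output gene Dbp (1.82 ± 0.122), the repressors Nr1d1 (1.56 ± 0.118) and Nr1d2 (0.93 ± 0.125) and Per3 (0.89 ± 0.101), with Cry1 at -0.43 ± 0.114. Of 19 cAMP targets 10 were higher and 0 lower (52.6% past the test, beside 24.5% of all genes, median 0.29). Among them were Ramp3, a receptor partner (1.50 ± 0.157), the nuclear receptor gene Nr4a1 (1.40 ± 0.090), Gem (1.19 ± 0.110) and Star, a cholesterol carrier (1.08 ± 0.138). Of 22 glucocorticoid targets 10 were higher and 4 lower (63.6% past the test, beside 24.5% of all genes, median 0.02). Besides Cebpd and Pdk4, the lipocalin gene Lcn2 changed by 0.83 ± 0.133 and the metallothionein gene Mt2 by -1.36 ± 0.121.

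Of 35 growth factors and receptors 16 were higher and 3 lower (54.3% past the test, beside 24.5% of all genes, median 0.15). Hgf, hepatocyte growth factor, read 11.78, 11.76 and 11.70 in the high-Isl1 and 10.09, 9.52 and 9.89 in the low-Isl1 arrays at 48 h, and 10.48, 10.39 and 10.39 in ISL1 and 10.63, 10.55 and 10.59 in vector arrays at 0 h. It differed past the test at 48 h alone and changed by 2.08 ± 0.133, whereas its receptor gene Met was lower with Isl1 at 48 h and higher at 0 h (-1.68 ± 0.184). Fgf2 changed by 1.70 ± 0.125 and Fgf7 by 1.49 ± 0.091. Of 33 Wnt genes 15 were higher and 2 lower (51.5% past the test, beside 24.5% of all genes, median 0.14). The matricellular gene Ccn5 (1.75 ± 0.121), the agonist Rspo2 (1.60 ± 0.136) and the receptor Fzd7 (1.17 ± 0.121) were higher, and Rspo3 lower (-1.91 ± 0.147). Of 17 Notch genes 5 were higher and 0 lower (median 0.09). Their 29.4% past the test is close to the 24.5% of all genes. The largest were the coactivator gene Maml2 (0.94 ± 0.148), the receptors Notch2 (0.74 ± 0.134) and Notch3 (0.71 ± 0.096) and the ligand Jag1 (0.60 ± 0.100).

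Of 23 antioxidant genes 8 were higher and 8 lower (69.6% past the test, beside 24.5% of all genes, median -0.05). Heme oxygenase (Hmox1) was at -1.03 ± 0.115, Gclm of glutathione synthesis at -0.97 ± 0.104 and the transferase gene Gstm2 at 0.83 ± 0.104. Of 26 p53 targets and growth arrest genes 5 were higher and 4 lower (34.6% past, beside 24.5% of all genes, median -0.12). There the cell cycle inhibitor gene Cdkn2b changed by 0.88 ± 0.105 and Plk2 by 0.97 ± 0.146, against -1.06 ± 0.134 for Gadd45g and -0.82 ± 0.141 for Gadd45b.

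Few developmental genes linked to ISL1 had a change past the test, and their signal levels were not compared with background. Of 35 LIM factors and lineage genes 4 were higher and 1 lower, which is 14.3% of them beside 24.5% of all genes (median -0.08). Slit2, an axon guidance factor, changed by 1.43 ± 0.097, Tbx18 by 0.71 ± 0.143, Fgf10 by 0.46 ± 0.105 and the LIM-only gene Lmo4 by -0.63 ± 0.104. Of 29 Hox genes 4 were higher (Hoxa2 0.99 ± 0.101, Hoxa3 0.61 ± 0.127, Hoxa5 0.51 ± 0.126 and Hoxa6 0.49 ± 0.126) and 1 lower (Hoxd8 -0.32 ± 0.112), with a median of 0.02. Their 17.2% past the test was below the 24.5% of all genes. The call on Hoxd8 was lost in most alternatives.

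**Figure D5:**
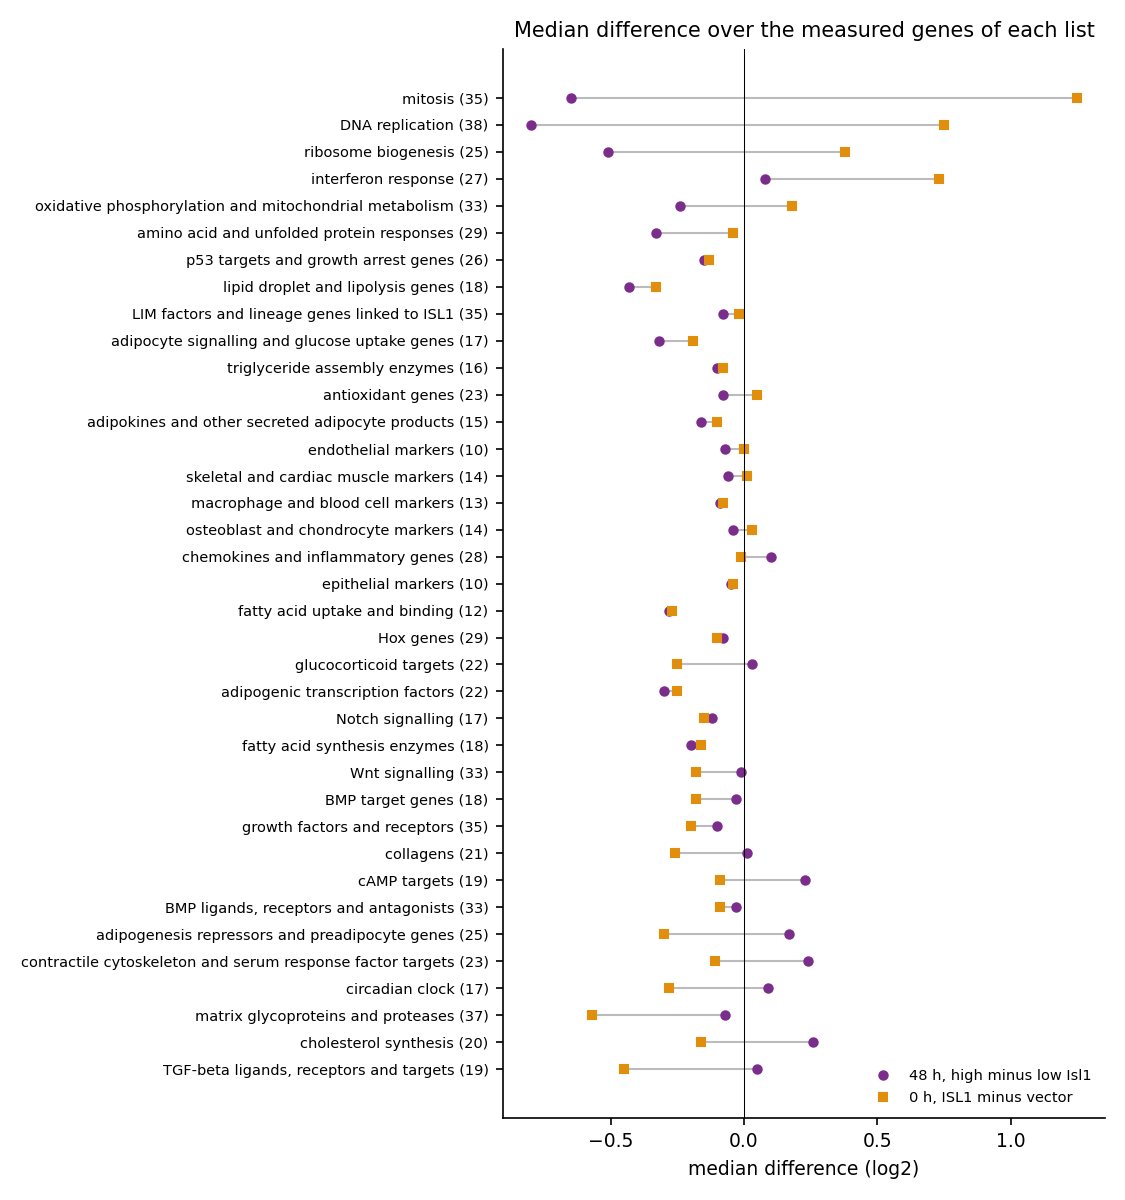
For each of the 37 gene lists the median 48 h difference (high-Isl1 minus low-Isl1) and the median 0 h difference (ISL1 minus vector) are shown on the log2 axis, ordered by the median change. Mitosis (-0.65 at 48 h, 1.25 at 0 h) and DNA replication (-0.80 and 0.75) lie at one end, and TGF-beta genes (0.05 and -0.45) at the other.

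The most positive changes of all were of single genes with large 0 h or 48 h gaps. Mamdc2 read 9.88, 9.61 and 9.93 in the high-Isl1 and 7.83, 7.48 and 7.61 in the low-Isl1 arrays at 48 h, and 8.07, 7.90 and 7.83 in ISL1 and 10.04, 9.93 and 9.94 in vector arrays at 0 h. The signs were opposite and groups did not overlap at either time, and the change was 4.20 ± 0.140 (adjusted p = 7.28e-17). Vstm2a, an immunoglobulin-domain gene, read 10.89, 10.95 and 11.05 in the high-Isl1 and 10.50, 10.46 and 10.79 in the low-Isl1 arrays at 48 h, and 8.33, 8.31 and 8.29 in ISL1 and 10.86, 10.75 and 10.90 in vector arrays at 0 h and changed by 2.90 ± 0.106, again with opposite signs. Ptprq, a phosphatase, read 6.75, 7.11 and 6.64 in the high-Isl1 and 8.04, 7.73 and 7.82 in the low-Isl1 arrays at 48 h, and 6.82, 7.17 and 6.94 in ISL1 and 10.93, 10.90 and 10.85 in vector arrays at 0 h, lower with Isl1 at both times and by less at 48 h, and changed by 2.88 ± 0.136. Car3, a carbonic anhydrase abundant in fat, changed by 2.37 ± 0.194 in the same way. Tnfrsf21 (2.51 ± 0.091), Pi15 (2.40 ± 0.113) and Lrrc17 (2.36 ± 0.091) were higher with Isl1 at 48 h and lower at 0 h. Prl2c5, a prolactin family gene (2.43 ± 0.229), and Xpnpep2 (2.44 ± 0.133) were higher with Isl1 at 48 h by more than at 0 h. So were Elmo1 (1.99 ± 0.145) and Gpr137b (1.85 ± 0.169), which were not among the 15 most positive changes. Prl2c5 and Elmo1 did not differ past the test at 0 h.

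Several genes differed with Isl1 by less at 48 h than at 0 h, while Rasgef1b, Pip and Plaat3, given last, differed by more in size. Lrrn3, a neuronal leucine-rich repeat protein, read 7.83, 7.56 and 7.86 in the high-Isl1 and 6.74, 6.86 and 6.70 in the low-Isl1 arrays at 48 h, and 10.50, 10.34 and 10.67 in ISL1 and 7.12, 7.12 and 7.13 in vector arrays at 0 h. It was higher with Isl1 by 0.98 at 48 h and by 3.38 at 0 h, a change of -2.40 ± 0.130. Scn7a, a sodium channel, read 5.86, 5.76 and 5.83 in the high-Isl1 and 5.28, 5.45 and 5.30 in the low-Isl1 arrays at 48 h, and 8.49, 8.60 and 8.48 in ISL1 and 5.48, 5.55 and 5.57 in vector arrays at 0 h and changed by -2.52 ± 0.125. Ccdc141 changed by -2.57 ± 0.186, and its 5 probe sets lay between -2.57 and -1.88. Lypd6 read 7.14, 7.01 and 7.15 in the high-Isl1 and 7.28, 7.31 and 7.32 in the low-Isl1 arrays at 48 h, and 10.04, 9.89 and 9.85 in ISL1 and 7.25, 7.24 and 7.15 in vector arrays at 0 h: it was high in ISL1 cells at 0 h alone, with a slight opposite difference at 48 h, and changed by -2.92 ± 0.106. Kprp (0.05 at 48 h and 2.12 at 0 h), Mpp6 (-0.22 at 48 h and 2.00 at 0 h) and Rspo3 (0.16 at 48 h and 2.07 at 0 h) had a difference past the test at 0 h alone, as Cxcl15 (-0.14 at 48 h and -2.41 at 0 h) and Rasgrp3 (-0.32 at 48 h and -2.38 at 0 h) did in the other direction. Rasgef1b read 6.94, 6.91 and 6.98 in the high-Isl1 and 8.85, 8.11 and 8.73 in the low-Isl1 arrays at 48 h, and 7.84, 7.72 and 7.56 in ISL1 and 6.48, 6.66 and 6.62 in vector arrays at 0 h, lower with Isl1 at 48 h and higher at 0 h (-2.74 ± 0.203). Pip (-2.00 at 48 h and 0.01 at 0 h) differed past the test at 48 h alone, and Plaat3, a phospholipase of fat cells, was lower at both times and more so at 48 h (-3.06 at 48 h and -1.20 at 0 h).

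Changes that passed the test with neither time past it alone were small or noisy. The 6 largest were 0.80 for the probe set annotated to Mirlet7c-1, -0.76 for Glrx3, -0.72 for Tfam, -0.68 for Mrpl47, -0.62 for Cmtm4 and 0.61 for Zfp935. Their adjusted p ran from 0.0122 to 0.0478. The second probe set of Mrpl47 gave -0.09 and that of Cmtm4 -0.31.

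Markers of other cell types were compared with the median of 7.04 of unnamed probe sets. The macrophage and blood cell markers (13 of 16 measured) averaged 7.05 to 7.07 in the high-Isl1 and 7.12 to 7.26 in the low-Isl1 arrays at 48 h, and 6.97 to 7.10 in ISL1 and 7.46 to 7.49 in vector arrays at 0 h. Of the 13, 5 were above that median in the high-Isl1 and 7 in the low-Isl1 arrays at 48 h, and 6 in ISL1 and 7 in vector arrays at 0 h. Adgre1 (6.04, 6.07, 5.99 and 5.94 in the same order) and Ptprc (6.33, 6.28, 6.17 and 6.31) were below it, while Cd68 (8.37, 8.94, 8.23 and 8.31), Cd14 (8.22, 7.86, 7.87 and 8.32), Cd3e (8.01, 7.94, 7.92 and 7.95) and C1qa (7.38, 7.60, 7.43 and 7.46) were above it. Lyz2, lysozyme, read 6.79, 6.66 and 6.82 in the high-Isl1 and 7.61, 7.44 and 7.65 in the low-Isl1 arrays at 48 h, and 7.44, 7.07 and 7.12 in ISL1 and 12.10, 12.03 and 12.03 in vector arrays at 0 h. The vector arrays at 0 h stood alone, and its change was 4.04 ± 0.123. Without Lyz2 the other 12 averaged 6.96 to 7.25 over all 12 arrays. Cd14 changed by 0.81 ± 0.117 and Cd68 by -0.49 ± 0.113. Array means over the 4 groups ran from 7.23 to 7.38 for endothelial, 7.15 to 7.48 for epithelial, 7.57 to 7.92 for muscle and 7.52 to 7.76 for osteoblast and chondrocyte markers. The highest single levels were 8.30 for Flt1, 8.46 for Krt8, 9.02 for Acta1 and 9.31 for Alpl. The test for the change was passed by 23.1% of macrophage and blood cell, 20.0% of endothelial and 10.0% of epithelial markers. It was passed by 7.1% of muscle and 14.3% of osteoblast and chondrocyte markers, beside 24.5% of all genes. Of 10 endothelial markers 1 was higher (Emcn, 1.15 ± 0.167) and 1 lower (Tek, -0.71 ± 0.122). Of 10 epithelial markers 0 were higher and 1 lower (Krt14, -0.50 ± 0.166), of 14 muscle markers 0 higher and 1 lower (Tnnt2, -0.38 ± 0.130), and of 14 osteoblast and chondrocyte markers 1 was higher (Sox5, 0.32 ± 0.106) and 1 lower (Alpl, -0.70 ± 0.118).

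With the 48 h titles taken as given, the sign of every 48 h difference turns and the change becomes another quantity. It was then past the test for 5777 genes (29.0%), 2532 higher and 3245 lower. Mitosis genes had 27 of 35 lower and 0 higher (median -0.62), replication genes 6 higher and 8 lower of 38 (median -0.03) and ribosome biogenesis genes 6 higher and 0 lower of 25 (median 0.20). Lipid droplet and lipolysis genes had 14 higher and 1 lower of 18 (median 0.65). Bmp4 changed by 3.78 ± 0.147 in this reading and Fabp4 by 4.29 ± 0.120, while Id2 was at -1.24 ± 0.100 and Dgat2 at 4.84 ± 0.166. Bub1 was at -0.48 ± 0.197 (adjusted p = 0.068). The narrowing and widening of the lipid genes described above, and the reversal of the cell division genes, thus hold for the grouping by Isl1 level. The responses to the medium were paired by Isl1 level too, and were not computed with the titles as given.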

How the data were processed

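Total RNA of 27 samples (9 groups of 3) was measured on Affymetrix mouse arrays, 1 array a sample. The deposited values are log2 probe set signals made by the authors with RMA, per the submitters' processing notes (no version was found in the sources used here). The log base was settled from the values, which ran from 3.35 to 14.85. Of 28853 probe sets, 21789 had 1 gene symbol in the platform annotation, 1621 had several and 5443 had none. Only the first kind was used, and the probe set with the highest mean stood for a gene (999 genes had several), which left 19938 genes, or 19937 without Isl1. RMA makes array distributions alike, so values show relative changes. The arrays carry no detection calls here, and 3 arrays a group limit the precision.

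The linear model had a mean for each of the 9 groups and used all 27 arrays (limma 3.58.1, R 4.3.3, empirical Bayes with 6.56 prior and 18 residual degrees of freedom). P-values were two-sided and adjusted by Benjamini and Hochberg over all genes. The script was tested on simulated data. Group membership follows the labels. The Isl1 level sets the direction at 48 h and which 0 h group each 48 h group is paired with. The members and the 37 gene lists (877 distinct genes, 820 measured) were chosen with earlier results of these data known.

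The rule for naming genes took Isl1, Bmp4, Pparg and Cebpa, Cebpb and Cebpd, the 15 most positive and 15 most negative changes, for each list the 4 largest changes past the test and the largest against its majority, and the 6 largest of each pattern of the 48 h and 0 h differences. Mcm3, Mcm7, Npm1, Spc24, the lipid genes lower at both times and some markers were named outside this rule, after their values were seen. Promoter windows came from RefSeq (GRCm38.p6).

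Same-numbered arrays of the WT_T48 and ISL1_T48 groups deviated together (correlations of 0.314, 0.547 and 0.217), while in no other pair of the 4 groups were all 3 above 0.1. Alternatives were the 12 arrays alone, median centring, a filter on low signals, the mean of probe sets, a trended and robust variance, array weights, a replicate block and leaving out each array.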

Additional observations from a re-analysis of the deposited data

Results flagged for a closer look

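The difference that goes with Isl1 was not the same at 48 h as at 0 h for 4888 genes by the test of the change itself (limma, adjusted p under 0.05), and 1184 of these had opposite signs, each past the test. The largest in that class in either direction are given here. Mamdc2 changed by 4.20, Vstm2a by 2.90 and Id2 by 2.79, each higher with Isl1 at 48 h and lower at 0 h. Usp18 changed by -3.00, Lypd6 by -2.92 and Rasgef1b by -2.74, each lower with Isl1 at 48 h and higher at 0 h. Groups of 3 arrays are too small for a test of single outlying arrays.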

How the results depend on the processing

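The count of 4888 changed genes was 4775 with the 12 arrays alone, 4695 with median centring (2349 higher), 5089 of 14425 genes with the filter on low signals, 4890 with the mean of probe sets, 5119 with trended and robust variances and 5909 with array weights. Leaving out each array in turn gave 4443 to 4975, and in each of these settings 90.0% to 100.0% of the 4888 genes still measured passed in the same direction. The mean of probe sets turned the direction of 2 genes. With a replicate block the count was 4881, and with a block in the 48 h arrays only, chosen after seeing the data, 5162. Of the 4888 calls 4796 remained under the first and 4873 under the second. None of the 183 named genes changed direction in these settings. Cidec, Cmtm4, Gpd1, Hoxd8, Krt14, Mirlet7c-1, Mrpl47, Sox5, Tfam, Tnnt2, Trim30a and Zfp935 lost the call in at least 1 of them, and the cause was not tested. Genes near background understate their differences, and the direction at 48 h rests on the Isl1 level.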
